A study of Mus musculus with 2 samples.

Results

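Small nucleolar RNAs (snoRNAs) with sequencing reads were described in total RNA of the adrenal gland of the mouse. They were chosen by their measured counts: a gene annotated as snoRNA was taken when its expected count was at least 10 in both libraries, which held for 69 of 1507 annotated snoRNA genes, among 55536 annotated genes in all. Counts, TPM and rank by level are therefore a description of genes selected on those same counts, and their number and level were not tested. The 1 group held 2 libraries, replicate 1 and replicate 2, from male B6CASTF1/J mice, a first-generation hybrid of a laboratory strain and a wild-derived strain, aged 25 days and with no treatment, allele or transgene given in the labels. Each library was made from 300 ng of total RNA depleted of ribosomal RNA, with spike-in transcripts added. The labels conflict on whether the replicates are separate animals: the biosample labels differ, but the library and donor labels do not. The spread between the libraries therefore cannot be read as a spread between animals. Liver and skeletal muscle markers, given below, differed widely between the libraries.

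SnoRNAs are short RNAs of the nucleolus that guide chemical changes of other RNAs. Those with the C and D boxes (Snord symbols) direct methylation of ribosomal RNA, those with the H and ACA boxes (Snora symbols) direct the change of uridine to pseudouridine, and a few, such as U3 (Rnu3 symbols), are needed for cutting the ribosomal precursor. Related RNAs of the Cajal body (Scarna symbols) guide changes of spliceosomal RNAs. Most vertebrate snoRNAs are cut from introns of a host gene after splicing, whereas U3 and U8 genes have promoters of their own.

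By symbol, the 69 genes were 19 Snora, 5 Snord, 10 identifiers of U3 (2 Rnu3a and 8 Rnu3b), 1 Scarna, 33 with only a Gm symbol, and Mir1949, a microRNA symbol on a gene annotated as snoRNA. They lay on 18 chromosomes, and 67 of 69 had a RefSeq entry of assembly GRCm38.p6 at the same place. Gm22486, for example, is Snord94 in RefSeq. Their 69 identifiers had 63 distinct sequences.

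The sequences below are those of the genome reference (GENCODE M21, build mm10), on the transcribed strand, and not those of the hybrid animals. First are the single identifier with the highest TPM, Gm22988 (chr11:69669635-69669778, minus strand, within Eif4a1 and overlapping a retained-intron transcript of it), and its 144-base relatives, Gm25291 (chr11:51737779-51737922, minus strand), Gm24727 (chr8:33691801-33691944, plus strand) and Gm25117 (chr10:111481493-111481636, plus strand). They are shown because Gm22988 had a far higher level than its near copies in other hosts. Capitals mark bases that differ from Gm22988.
Gm22988: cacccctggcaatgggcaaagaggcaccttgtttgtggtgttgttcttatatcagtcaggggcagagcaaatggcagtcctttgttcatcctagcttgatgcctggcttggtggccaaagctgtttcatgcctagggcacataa
Gm25291: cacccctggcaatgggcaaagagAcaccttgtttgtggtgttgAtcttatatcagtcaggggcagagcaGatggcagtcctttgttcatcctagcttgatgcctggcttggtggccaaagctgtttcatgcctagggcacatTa
Gm24727: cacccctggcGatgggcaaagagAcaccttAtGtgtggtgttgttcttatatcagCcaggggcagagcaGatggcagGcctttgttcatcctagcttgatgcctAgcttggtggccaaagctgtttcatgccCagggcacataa
Gm25117: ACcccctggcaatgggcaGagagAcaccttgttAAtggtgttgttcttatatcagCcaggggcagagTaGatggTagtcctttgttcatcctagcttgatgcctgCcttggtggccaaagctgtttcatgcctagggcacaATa
Gm25291 differed from Gm22988 at 4 bases (97.2% identity), Gm24727 at 9 and Gm25117 at 13. With positions counted from 1 at the 5′ end of Gm22988, G24A and A70G were found in each of the 3 relatives.

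The next pair, Snora73b (chr4:132352322-132352526, minus strand) and Snora73a (chr4:132352775-132352979, minus strand), lay in introns of Rcc1 and were the highest Snora genes. Capitals in Snora73a mark its 7 differences from Snora73b.
Snora73b: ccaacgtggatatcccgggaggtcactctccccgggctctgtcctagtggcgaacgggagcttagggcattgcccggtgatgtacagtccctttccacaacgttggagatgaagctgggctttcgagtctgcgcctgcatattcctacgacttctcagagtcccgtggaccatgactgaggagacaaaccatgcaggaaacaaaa
Snora73a: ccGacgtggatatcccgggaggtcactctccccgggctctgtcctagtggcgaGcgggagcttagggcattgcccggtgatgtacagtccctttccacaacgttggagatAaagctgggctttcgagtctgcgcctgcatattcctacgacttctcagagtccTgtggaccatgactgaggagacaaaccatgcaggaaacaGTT
The pair had 96.6% identity, and the authors' posterior SD of their counts, a measure of reads that could belong to either gene, was between 10.69 and 12.04 counts.

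U3 is shown because its counts were divided among copies. The capital marks the last base, which the longer annotated identifier of each gene has and the shorter lacks, for Rnu3b1 (chr11:87443237-87443452, plus strand) and Rnu3a (chr10:40258467-40258680, plus strand).
Rnu3b1: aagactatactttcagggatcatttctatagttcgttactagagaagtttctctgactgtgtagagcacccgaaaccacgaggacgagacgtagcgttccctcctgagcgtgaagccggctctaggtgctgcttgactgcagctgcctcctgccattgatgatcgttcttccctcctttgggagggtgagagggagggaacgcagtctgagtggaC
Rnu3a: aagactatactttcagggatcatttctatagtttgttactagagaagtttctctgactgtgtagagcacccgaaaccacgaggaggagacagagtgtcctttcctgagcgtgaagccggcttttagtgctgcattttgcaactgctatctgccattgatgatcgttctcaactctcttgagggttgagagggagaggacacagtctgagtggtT
Rnu3b1, Rnu3b2, Rnu3b3 and Rnu3b4 had the same sequence, each annotated at 215 and at 216 bases, so a read within these bases matches all 4 loci.

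Genes with the letters of the C and D boxes are shown next: Gm22486 (chr6:71882557-71882693, minus strand), Snord15b (chr7:99479563-99479707, minus strand) and Snord17 (chr2:144265979-144266216, minus strand). Capitals mark TGATGA in the first 30 bases and CTGA in the last 30.
Gm22486: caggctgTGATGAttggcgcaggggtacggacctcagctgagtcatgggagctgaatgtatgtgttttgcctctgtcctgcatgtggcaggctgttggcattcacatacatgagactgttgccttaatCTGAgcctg
Snord15b: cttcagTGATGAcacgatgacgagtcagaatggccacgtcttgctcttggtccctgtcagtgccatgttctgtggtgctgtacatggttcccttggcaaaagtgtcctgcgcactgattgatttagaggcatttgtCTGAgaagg
Snord17: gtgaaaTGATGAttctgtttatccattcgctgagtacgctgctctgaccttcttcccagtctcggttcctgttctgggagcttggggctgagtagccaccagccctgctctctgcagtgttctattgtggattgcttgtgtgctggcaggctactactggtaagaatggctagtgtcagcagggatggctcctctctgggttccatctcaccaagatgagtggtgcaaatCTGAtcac
These 3 are long for their class. Snord16a (chr9:64175423-64175521, plus strand) had 99 bases and is shown for contrast, with its CTGA in capitals. Its effective length was listed as 0 and its expected count as 0 in both libraries.
Snord16a: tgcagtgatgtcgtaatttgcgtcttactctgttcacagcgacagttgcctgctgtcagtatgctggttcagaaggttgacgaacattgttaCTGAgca

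Snora23 (chr7:110046364-110046547, plus strand), Snora31 (chr14:75847905-75848034, plus strand) and Gm26447 (chr16:23111301-23111429, plus strand) show the H and ACA boxes. Capitals mark the ANANNA closest to the middle and ACA placed 3 bases before the 3′ end.
Snora23: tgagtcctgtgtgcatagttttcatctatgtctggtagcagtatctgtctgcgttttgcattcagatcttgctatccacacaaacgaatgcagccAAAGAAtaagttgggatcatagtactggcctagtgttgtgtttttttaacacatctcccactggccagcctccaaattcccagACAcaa
Snora31: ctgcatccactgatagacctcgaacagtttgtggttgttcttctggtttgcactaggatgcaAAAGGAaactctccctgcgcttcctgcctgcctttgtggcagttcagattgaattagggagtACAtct
Gm26447: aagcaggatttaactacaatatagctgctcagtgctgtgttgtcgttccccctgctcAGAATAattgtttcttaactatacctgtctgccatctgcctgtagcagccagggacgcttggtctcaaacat
Gm26447, the single identifier with the next highest TPM after Gm22988, has an ACA 1 base before its annotated end, outside the position searched, and so carries only the ANANNA capitals.

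The libraries held 34987819 and 34835147 expected counts on annotated genes, so a gene at 0 counts could still hold up to 3 counts, or 8.57e-06% of replicate 1. The 10 adrenal markers (among them Star, of cholesterol transport, and Hsd3b1, of steroid synthesis) were each above a TPM of 1 in both libraries. Markers of other tissues differed between the libraries: the summed TPM of 7 liver markers was 109 in replicate 1 and 20126 in replicate 2, 6 of 7 passed a TPM of 1 in both, and the summed TPM of 6 skeletal muscle markers was 1196 and 1.81. The summed TPM of 6 adipocyte markers was 2705 and 2151, with 5 lower and 1 higher in replicate 2. None of these markers was at 0.

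Length set a sharp line in the deposited counts. All 458 annotated snoRNA genes under 100 bases had an effective length of 0 and no counts in the first quantification, and they included 87 of 98 Snord genes but none of 42 Snora genes. Effective length is the number of positions at which a fragment can start, and for each of the 69 genes it was the annotated length minus 99. Of the 1049 genes of at least 100 bases, 153 had any count and 69 met the count rule, and 9 more had at least 10 counts in 1 library only. The share was 22 of 54 genes of at least 150 bases (40.7%) and 47 of 995 genes of at least 100 but under 150 bases (4.72%). The 22 include the 10 U3 identifiers, near copies that divide reads among them. Among Gm genes alone the shares were 5 of 37 (13.5%) and 28 of 945 (2.96%). Among Snord genes of at least 100 bases, 5 of 11 met the rule, close in share to the 19 of 42 Snora genes, so the few Snord symbols here go with the lengths that could be counted and say nothing of the shorter Snord RNAs.

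**Figure D1:**
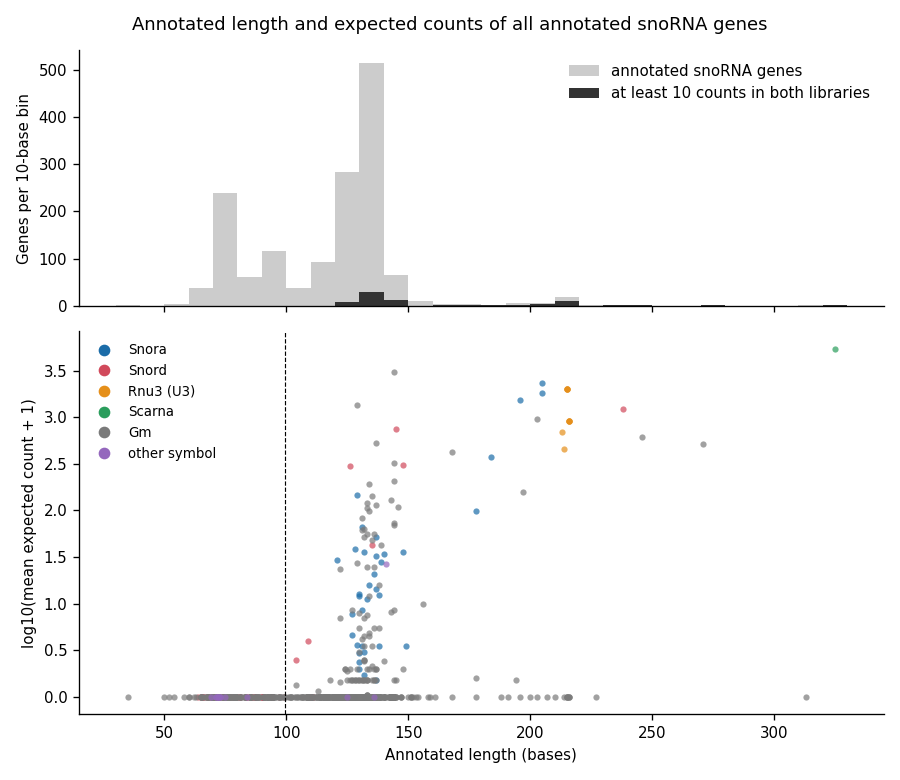
Annotated length in bases of all 1507 annotated snoRNA genes: genes per 10-base bin above, with the 69 genes that met the count rule in black, and log10 of the mean expected count plus 1 below, 1 point per gene coloured by symbol. No gene left of the dashed line at 100 bases had a count.

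The 69 genes together took 40367 counts in replicate 1 (0.115% of counts on annotated genes) and 34474 in replicate 2 (0.0990%). The exact Clopper-Pearson 95% intervals of these shares, which cover counting error only, were 0.114 to 0.117% and 0.09792 to 0.10001%. The mean share was 0.107% ± 0.0116 (SD, n = 2). By TPM, which divides counts by effective length, the same genes took 1.37% ± 0.155 (SD, n = 2) of the total. The 12 genes with the highest mean count held 68.6% ± 1.23 (SD, n = 2) of the members' counts, and 32 genes had a mean count under 100. Snora genes held 17.9% ± 1.59 of the members' counts, Snord genes 6.94% ± 0.344, U3 identifiers 34.4% ± 1.11, Scarna10 14.4% ± 2.18 and Gm genes 26.3% ± 0.172 (SD, n = 2 each). These shares are by symbol. U3 and Gm genes are in neither the Snora nor the Snord share, so those shares do not compare the H/ACA and C/D classes.

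**Figure D2:**
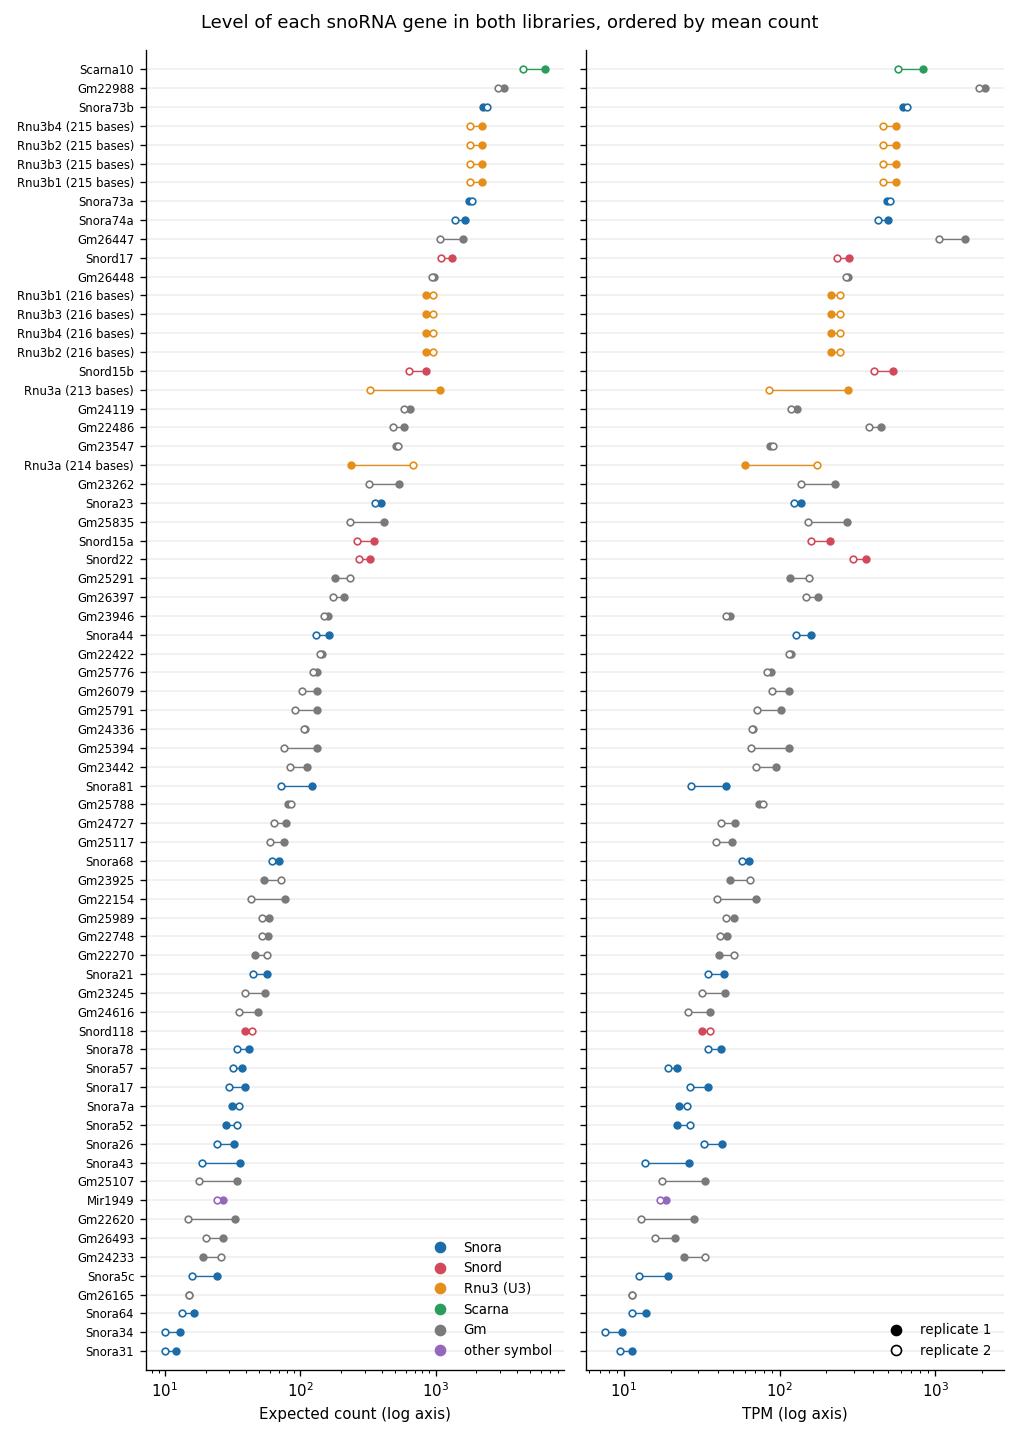
Expected count (left) and TPM (right), both on log axes, of the 69 genes in replicate 1 (filled) and replicate 2 (open), ordered by mean count and coloured by symbol. Among single identifiers Scarna10 is highest by count and Gm22988 by TPM, both below the summed Rnu3b (12251 and 11108 counts, a TPM of 3084 and 2814), and the 2 Rnu3a identifiers have the widest gaps between libraries, in opposite directions.

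U3, which base-pairs with the ribosomal precursor and is needed for cutting out the small-subunit RNA, held more counts than any other RNA here. Each of the 4 Rnu3b identifiers of 215 bases was given 2211 counts in replicate 1 and 1812 in replicate 2, and each of 216 bases 852 and 965. These values are equal between the 4 loci to the last digit deposited and cannot be assigned to a locus, and the authors' posterior SD reached 1535 counts for Rnu3b4. Summed, Rnu3b held 12251 and 11108 counts, a TPM of 2949 ± 191 (SD, n = 2). The Rnu3a identifier of 213 bases had 1071 and 330 counts and that of 214 bases 236 and 682, so the order of the pair reversed between the libraries. Their sum was 1307 and 1012 counts, a TPM of 298 ± 53.0 (SD, n = 2). Only the sums of Rnu3a and of Rnu3b are therefore read as levels.

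Scarna10, a Cajal body RNA annotated as snoRNA and the longest of the 69 at 325 bases, had 6427 and 4424 counts, the highest of any single identifier in both libraries and below the summed Rnu3b. Its TPM was 832.5 and 577, below the sum for U3. Its host is Ncapd2, a condensin subunit, at a TPM of 9.93 and 8.59.

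Among the Snora genes, mean counts ran from 11.0 to 2315 with a median of 34.5, and 14 of 19 were under 100. Snora73b and Snora73a, which take part in processing of the small-subunit RNA rather than in pseudouridine guiding, had 2246 and 2383 counts and 1762 and 1852 counts. Snora74a had 1651 and 1404 counts. These 3 stood far above the next, Snora23, at 396 and 355, and Snora44, at 162 and 129.8. The lowest members were Snora64 at 16.5 and 13.4 counts, Snora34 at 13 and 10, and Snora31 at 12 and 10. Just below the threshold lay Snora61 at 13.3 and 9.81 counts, Gm22362 at 14 and 8, and Gm24044 at 7.39 and 10.3. At these levels membership turned on 1 or a few counts.

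The 5 Snord genes had mean counts of 41.5 to 1214. Snord17, at 238 bases the longest of them, had 1332 and 1095 counts. Snord15b had 846 and 634 counts and Snord15a 353 and 263, both higher in replicate 1 before scaling. Snord22, known as U22 and needed for processing of the small-subunit RNA, had 329 and 273. Snord118, known as U8 and needed for processing of the large-subunit RNA, had 39 and 44. Its values were the lowest of the class in both libraries.

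Of the 33 Gm genes, Gm22988 had 3197 and 2907 counts and a TPM of 2079.6 and 1904, the highest of any single identifier and below the summed Rnu3b. Gm26447 followed in TPM at 1555 and 1063, from 1594 and 1081 counts. Gm26448, related to Snora73b (87.8% identity), had 981 and 948 counts. Gm24119, at 246 bases, had 653 and 589, Gm22486 had 580.0 and 484, and Gm23547, at 271 bases, had 508 and 532. The other 27 were at a mean count of 15.0 to 428.

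The letters of the boxes give a view of class that the counts did not use. TGATGA in the first 30 bases with CTGA in the last 30 was found in 3 of 5 Snord genes here and in 9 of 11 annotated Snord genes of at least 100 bases. ANANNA between base 40 and 20 bases before the end, with ACA 3 bases before the end, was found in 14 of 19 Snora genes here and 33 of 42 annotated. All searches were on the transcribed strand, and the motifs may overlap one another. Of the 33 Gm genes, 22 (66.7%) had the H and ACA letters, against 201 of 982 (20.5%) annotated Gm genes of at least 100 bases, and 3 (9.09%) had the C and D letters, against 8 of 982 (0.815%). The 3 were Gm22486, Gm23547 and Gm25835, a further 8 had neither pair, and none had both. With ACA allowed 2 to 5 bases from the end, the H and ACA share was 78.8% of the Gm genes here and 53.7% of those annotated. ANANNA alone was common, in 88.1% of annotated Gm genes of at least 100 bases, so the pair rests mainly on the ACA. A match is a description of letters and not of a working box.

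Near copies in different hosts differed in level in some families and not in others. In the family of Gm22988, the relatives Gm25291, Gm24727 and Gm25117 had 179 and 235, 79 and 64, and 76 and 60 counts. All 4 have the same length, so counts compare directly, and Gm22988 stood above each relative in both libraries, whereas Gm24727 and Gm25117 lay close together. Snora26 and Gm24233, in Dancr and Mia2 and 89.3% identical, were also close, at mean counts of 28.3 and 22.6. In the family of Gm22988 the posterior SD was at most 2.63 counts, so few reads were in doubt between annotated entries. That SD does not cover reads of unspliced host RNA, and whether such reads were counted to a snoRNA was not tested. In all, 25 of the 69 genes fell in 7 families of at least 75% identity, of which U3 was the largest. Besides the U3 identifiers, posterior SDs above 10% of the count in a library were seen in 3 genes, chosen after their values were seen: Gm23925, Snora52 and Snora43. For 31 genes the posterior SD was 0 in both libraries.

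Counts and TPM ranked the genes almost alike (Spearman rho 0.97 across 69 genes, which share libraries and reads), and the exceptions were set by length. Effective lengths ran from 22 to 226 positions with a median of 40. Snora26, the shortest at 121 bases and an effective length of 22, had a mean count of 28.3 and a mean TPM of 37.7. Gm24233, at 122 bases, had a mean count of 22.6 and a mean TPM of 28.8. Snord22, at 126 bases, had a mean count of 301 and a mean TPM of 327. At the other end, Gm23547, at 271 bases, had a mean count of 519.9 and a mean TPM of only 88.8. Length itself went with count (rho 0.66) and less with TPM (rho 0.49) across the same 69 genes. These include the 10 U3 identifiers, all of 213 to 216 bases.

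**Figure D3:**
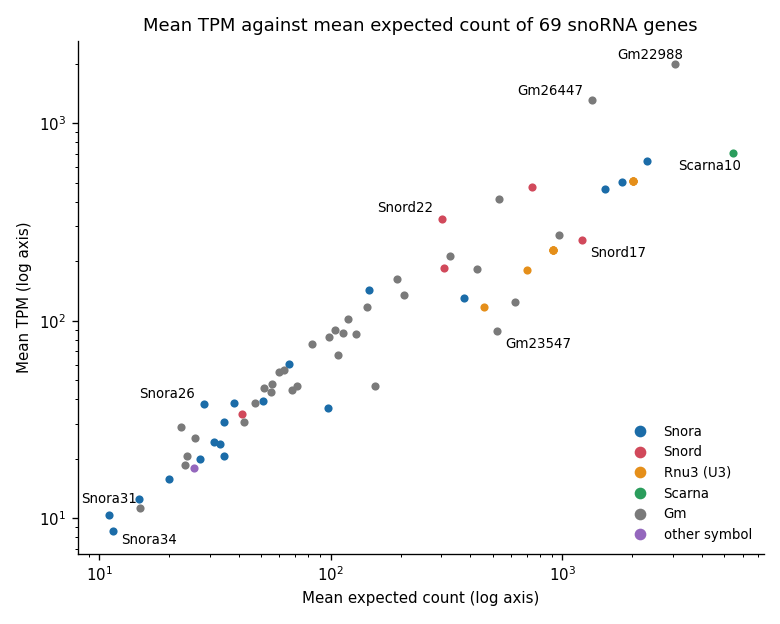
Mean TPM against mean expected count over 2 libraries for the 69 genes, both on log axes, coloured by symbol. Gm26447, of 129 bases, lies above Snord17, of 238 bases, at nearly the same mean count.

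The second quantification, made by the authors from the same reads, gave almost nothing for these genes. It listed 68 of 69 at 0 in both libraries, and Scarna10, at 3 counts in each, was the only annotated snoRNA gene above 0. Genes annotated as scaRNA, a class of Cajal body RNAs counted apart from these 69, held 2461 and 1816 counts there and 13712 and 11233 in the first. The reason for the difference was not tested, and all levels here rest on the first quantification.

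Where several genes on its strand spanned a snoRNA, a protein-coding one was preferred as host, then the longest. A same-strand host was found for 63 of the 69 genes, 57 of them in a protein-coding gene, with 47 distinct hosts. The others were both Rnu3a identifiers, Snord118, Snora57, Snora17 and Snora43. The snoRNA lay in an intron of every annotated host transcript for 41 genes, and overlapped an exon of some host transcript for 22, of which 18 touched only retained-intron or processed transcripts. In 43 of 63 cases the snoRNA had a higher TPM than its host in both libraries and in 19 a lower one. Both the 63 and the 43 include the 8 Rnu3b identifiers, near-identical copies that all lie within Tex14. The median fold in TPM over the host was 3.72, and 2.12 without Rnu3, a setting chosen after seeing the data. A TPM at least 10-fold above the host in both libraries was seen for 18. They include the 8 Rnu3b identifiers in Tex14, a gene of germ cell bridges at a TPM of 0.490 and 0.210. TPM divides counts by effective length, 22 to 226 positions for the snoRNAs, so a fold in TPM is not a fold in counts. Gm22988 was above its host Eif4a1 in TPM but below it in counts (3197 and 2907 against 9634 and 6948.5). Snora73b was above its host Rcc1 in counts too (2246 and 2383 against 438 and 334).

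Hosts of nearly the same TPM held snoRNAs of very different TPM. Across the 63 genes the Spearman rho of TPM against host TPM was −0.33, and it was −0.12 across 55 genes without the Rnu3b identifiers, a setting chosen after seeing the data. These are descriptions of genes that share libraries, and 8 hosts other than Tex14 hold more than 1 of them. Eif4a1, an RNA helicase of translation initiation at a TPM of 191 and 142, held Gm22988 at 2079.6 and 1904 and Gm25835 at 272 and 153. Eif4a2, its close relative at 189 and 146, held Gm26447 at 1555 and 1063, Snora81 at 45.3 and 26.8, and Gm24616 at 35.9 and 25.8. Snx5, a sorting nexin at 30.6 and 24.7, held Snord17 at 281 and 232 and Gm26165 at 11.3 and 11.3. Within each of these hosts the order was the same in both libraries.

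Some snoRNAs stood far above the weak gene assigned to them as host. Where a protein-coding gene spans a snoRNA, the rule does not use a non-coding one. Snora73b was at a TPM of 620 and 663, and Snora73a at 486 and 515, in introns of Rcc1, an exchange factor for Ran, at 6.34 and 5.62. Snhg3, from the list of non-coding snoRNA hosts and not used by the rule here, was at 13.2 and 12.5. Snhg4, Snhg7 and Snhg16 of that list were not in the annotation under those symbols. A snoRNA could therefore not be assigned to them by name, and a weak or missing host may reflect the annotation. Snora74a was at 498 and 427 within Gm28285, at 1.95 and 1.37, and Snord22 at 357 and 298 within Snhg1, at 22.4 and 13.1. The opposite was seen for Snora31, at 11.3 and 9.51, in Tpt1, an abundant growth-related protein gene at 845 and 712. Gm24119 was at 130.0 and 118 within Slc25a3, the mitochondrial phosphate carrier, at 419.6 and 232. Gm23262 was at 227 and 137 within Eif4g2, a translation factor, at 298 and 234. Gm26448 was at 276 and 269, near its host Rpsa, a ribosomal protein gene at 231 and 216.

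**Figure D4:**
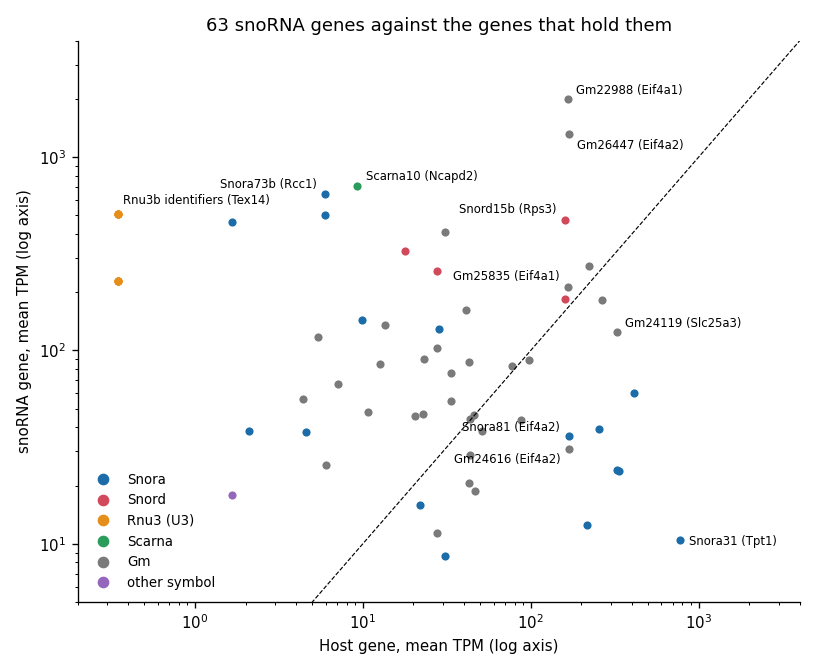
Mean TPM of 63 snoRNA genes against mean TPM of the host gene, both on log axes, with a dashed line of equality. Gm22988, Gm26447, Snora81 and Gm24616 have hosts of nearly the same TPM yet spread over the vertical axis, and Snora31 lies far below the line.

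Between the libraries, 19 of the 69 genes (27.5%) differed by an exact binomial test on counts scaled by TMM, with Benjamini-Hochberg adjustment over 19801 genes at 0.05, against 39.1% of all genes tested. Higher in replicate 2 were 12 genes (20.7% of all genes tested were) and lower were 7 (18.4%). With 1 library a side, the test reflects counting error and speaks of these libraries only. In bulk RNA, fewer cells of a type and less RNA per cell cannot be told apart. Selection at 10 counts in both libraries keeps out genes absent from 1 of them. The median log2 ratio of replicate 2 over replicate 1 was −0.04 for the 69 genes and −0.01 for all genes tested. The direction depended on scaling: by total counts 6 were higher and 20 lower of 26, and by spike-in totals 1 was higher and 30 lower of 31, while the median of all genes tested moved to −0.24 and −0.37. The liver, muscle and adipocyte markers above moved with the libraries as well (7 of 7 liver markers higher, 6 of 6 muscle markers lower and 5 of 6 adipocyte markers lower in replicate 2), and their part in these differences was not tested.

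U3 gave the largest ratios, and the sums did not show them. Rnu3a of 213 bases was at a log2 ratio of −1.46 (95% interval −1.64 to −1.28) and Rnu3a of 214 bases at 1.77 (1.55 to 1.99). The summed Rnu3a was at −0.13, with an adjusted p of 0.0765 by the exact binomial test. The 4 Rnu3b identifiers of 216 bases were each at 0.42 and those of 215 bases at −0.05, and the summed Rnu3b was at 0.10 (exact binomial adjusted p = 1.54e-06), which turned to −0.13 by total counts and −0.26 by spike-in totals. With Rnu3a and Rnu3b each summed, a step chosen after seeing the data, 14 of 61 entries differed, 8 higher and 6 lower.

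Among the other genes, Snora73b at 0.32 and Snora73a at 0.31 were both higher in replicate 2, as was their relative Gm26448 at 0.19 (exact binomial adjusted p = 0.0131). Gm25291 was higher at 0.63 (0.34 to 0.92), and its host Sec24a, of vesicle transport, was at 0.98. Gm23925 was higher at 0.65 (0.12 to 1.19) on 54.0 and 71.9 counts, with posterior SDs of 20.4 and 20.9. Gm23547 was at 0.31 and Gm22988 at 0.10. Of these 7, none passed as higher by spike-in totals, where Snora73b, Snora73a, Gm26448, Gm23547 and Gm22988 turned to between −0.26 and −0.0339.

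Lower in replicate 2, under each scaling tried, were Scarna10 at −0.30, Gm26447 at −0.32, Gm23262 at −0.50, Snora81 at −0.52, Gm25394 at −0.57 and Gm25835 at −0.60. Gm22154 was at −0.60 with an adjusted p of 0.0788 (exact binomial test), and Gm22270 at 0.55 with 0.146. All 5 Snord genes lacked a call, with ratios of −0.19 to 0.41. For Snord118 the interval ran from −0.24 to 1.07, so a difference of that size was not detectable at its depth.

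Ratios of the snoRNAs followed those of their hosts weakly. Spearman's rho was 0.06 across 63 genes, 0.25 across the 55 without Rnu3b, and 0.43 across 27 of those with a mean count of at least 100. Of 6 genes lower in replicate 2 that have a host, 5 had a lower host too, and Gm26447 and Snora81 share theirs, Eif4a2. Of 11 higher ones, 3 had a higher host, among 47 hosts of which 19 were lower and 8 higher. The 11 include the 4 Rnu3b identifiers of 216 bases, which share their sequence, their counts and the host Tex14, which had no call. Scarna10 was lower with its host Ncapd2 at 0.02, and Gm24119 was at 0.09 with its host Slc25a3 at −0.60. The pair Gm22988 and Gm25835 differed in direction within Eif4a1, which was at −0.23.

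**Figure D5:**
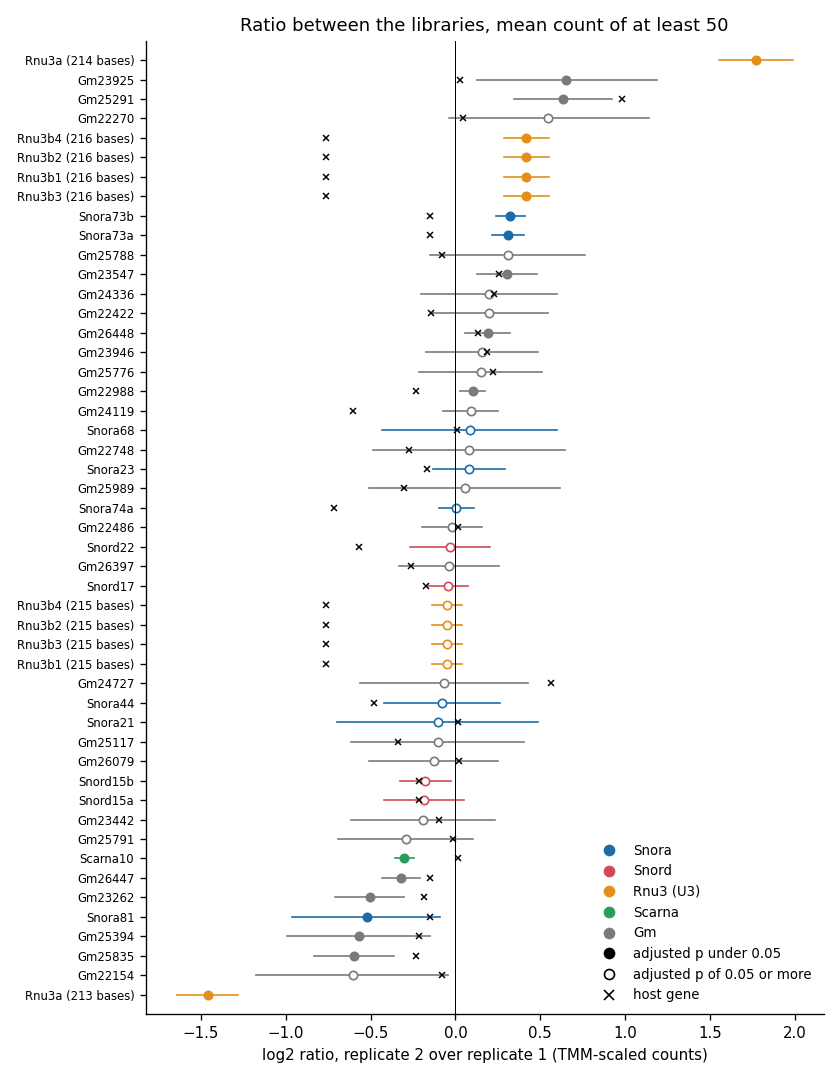
Log2 ratio of replicate 2 over replicate 1 (TMM-scaled counts) of genes with a mean count of at least 50, with 95% intervals that cover counting error only, filled where the adjusted p was under 0.05, and the host gene as a cross. The 2 Rnu3a identifiers lie at opposite ends, at −1.46 and 1.77, and host crosses often lie away from their snoRNA.

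Genes for proteins that bind, assemble and process snoRNAs were all measured above a TPM of 1. Their counts of calls stand beside 20.7% higher and 18.4% lower among all genes tested. Of the 4 core proteins of C/D snoRNAs, 3 were lower in replicate 2: Nop58 (38.1 and 23.1 TPM), Nop56 (35.6 and 23.4) and Snu13 (28.5 and 19.9). The methyltransferase Fbl was at 35.4 and 28.9 without a call. Of the 4 core proteins of H/ACA snoRNAs only the pseudouridine synthase Dkc1 was lower (16.0 and 10.9), while Nop10 (39.04 and 33.39), Gar1 (21.3 and 15.5) and Nhp2 (18.4 and 17.0) had no call. Among the 9 assembly factors in the annotation 3 were lower and none higher, and the highest were Pih1d1 (18.1 and 16.7) and Ruvbl2 (17.8 and 14.2). Of 12 genes for end processing and capping, 2 were higher and 1 was lower, Pabpn1 (69.3 and 56.8), a poly(A)-binding protein.

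Of 6 nucleolar and Cajal body genes, 3 were lower, among them Npm1 (102 and 70.1 TPM), the nucleophosmin gene, and Ncl (77.7 and 53.5), the nucleolin gene. Of 10 protein genes of the U3 processome, 6 were lower and none higher, and Imp3, a U3-binding protein, was the highest at 31.4 and 23.8 without a call. Of 17 non-coding snoRNA hosts in the annotation, 6 were lower and 1 was higher. Rian, of the imprinted Dlk1 domain, was at 203 and 145 and Gas5 at 104 and 68.0, both lower. All 10 adrenal markers were lower. The part of liver, muscle and adipocyte RNA in these list counts was not tested.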

How the data were processed

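Total RNA of 1 group of 2 adrenal libraries was analysed. Per the file headers, the authors deposited gene tables with an expected count, a TPM and a posterior SD of the count per gene (the first quantification), and transcript tables with an estimated count and a TPM per transcript (the second). Per the text files deposited with the samples, both used mm10 and annotation M21. The aligner, both quantifiers and any use of strand in counting were not given in the sources used here. The authors' TPM covers genes and spike-ins together. Estimated counts of the second were summed per gene.

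The deposited TPM was used for levels and counts for ratios. Expected counts were rounded to whole numbers. A two-sided exact binomial test compared the libraries with sizes scaled by TMM (edgeR 4.0.16; DESeq2 1.42.0 for alternative size factors), over genes with at least 10 counts in total, adjusted by Benjamini-Hochberg in Python 3.11.15 (scipy 1.17.1). It was also run on simulated counts that held counting error only, which cannot give its error rate on libraries that differ in other ways. The 2 libraries are 1 group with no second arm, so the replicate numbers pair nothing.

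A host is a gene of another biotype, small RNA classes left out, that spans the snoRNA on the same strand. Among several, a protein-coding gene was preferred, then the longest span. Identity is from edit distance (edlib 1.3.9.post1). The genes named are those of highest count or TPM (12 each), most extreme ratio with a mean count of at least 50, largest difference between quantifications, shortest, longest and nearest the threshold, with their hosts and the 4 highest of each gene list. Genes named for a shared host, family or class were chosen after their values were seen. The members and lists were chosen with earlier results of these data known. Genome sequence of chromosome 18 is not reported here. Entries that name no gene were left out of library sizes. Spike-ins held 0.839% and 0.915% of counts.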

Additional observations from a re-analysis of the deposited data

How the results depend on the processing

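Under a count minimum of 5 or 20, 77 or 60 genes met the rule, and from replicate 2 or replicate 1 alone 72 or 75. From the second quantification none met it, since 68 of 69 were at 0, and 0 differed between libraries with none of them testable; their share was then 8.55e-06% of counts. As a share of TPM it was 1.37%. Spike-in totals called 31 genes, and total counts and spike-in totals moved the median ratio to −0.27 and −0.40. The rho of snoRNA against host TPM was −0.12 without U3, chosen after seeing the data, and −0.34 to −0.28 with either library left out. For TPM against counts, rho was 0.969 to 0.970 with either library left out. The share of counts was 0.0990 to 0.115% and the Snora share of members' counts 16.8 to 19.0% with either library left out. Of 16 ratios called here (Rnu3b1 standing for its identical copies), total counts reversed 2, Gm22988 (−0.13) and Gm26448 (−0.0431), and 4 more no longer passed. Spike-in totals reversed 5, Gm22988 (−0.26), Snora73b (−0.0339), Snora73a (−0.0474), Gm26448 (−0.17) and Gm23547 (−0.0527), and 3 more no longer passed. The summed Rnu3b turned to −0.13 and −0.26. DESeq2 size factors changed none of the 16, and without the filter on low counts Snora81 and Gm23925 no longer passed. For the second quantification, the Snora share, median ratio and both relations could not be computed. No paired analysis was possible because there is 1 group only.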
